A study of Arabidopsis thaliana with 10 samples.

Results

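The 2 MORF2 overexpressor lines of the series, MORF2OX and MORF2OX(w), were compared with each other on the herbicide norflurazon, across all genes. The comparison used 4 of the 10 libraries, 2 of each line, picked by their labels and not by any measured value. All 4 were prepared from whole Col6-3 seedlings at day 5, grown in constant light on medium with 5 µM norflurazon, and each library pooled many plants of a single genotype. Both lines therefore carry extra MORF2 and both were treated: what differs by label is the line alone, and the series' text describes the phenotype of the lines as unequal in strength. Libraries from 3 further groups served as context, 2 of each: the mutant gun1-9 on 5 µM norflurazon, Col6-3 wild type on 5 µM norflurazon, and untreated Col6-3 wild type. The labels do not give the promoter of the MORF2 transgene, the number of insertion events behind a line, or the lesion of gun1-9. Untreated libraries of the overexpressor lines were not analysed here, so a difference between the lines that does not need norflurazon cannot be told apart from one that does. The labels do not say whether the 2 libraries of a group came from plants grown apart, so p-values measure the spread between those libraries, which may be technical. The libraries of the lines held 25220815 and 25056558 counts in MORF2OX and 22840943 and 19967185 counts in MORF2OX(w), within a range of 19018594 to 25220815 over the series. MORF2OX(w) replicate 2 stood apart in mitochondrial genome transcripts, whose level scaled to library size (CPM, below) summed to 228 and 221 CPM in MORF2OX and 255 and 819 CPM in MORF2OX(w).

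Norflurazon blocks carotenoid synthesis at phytoene desaturase. In the light, plastids without carotenoids are bleached by photooxidation, and the nucleus of wild type seedlings then shuts down many genes for photosynthesis, a response called plastid-to-nucleus (retrograde) signalling. Mutants named gun (genomes uncoupled) keep part of that expression; GUN1 is a plastid pentatricopeptide repeat protein of this pathway. MORF2 (multiple organellar RNA editing factor 2) is a small plastid protein that works with pentatricopeptide repeat proteins when cytidines of plastid transcripts are converted to uridines.

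MORF2 itself (AT2G33430) had 7969 and 7248 CPM (counts scaled to a common library size, with edgeR's TMM correction for the composition of libraries) in MORF2OX, against 4430 and 5012 CPM in MORF2OX(w). The libraries of the lines did not overlap. The means were 7608 ± 510 CPM for MORF2OX, against 4721 ± 412 CPM for MORF2OX(w) (SD, n = 2 each), a 1.61-fold difference (log2 fold change 0.69, SE 0.13, edgeR quasi-likelihood test with Benjamini-Hochberg adjustment, adjusted p = 0.0187). In the groups without the transgene MORF2 had 123 and 117 CPM in gun1-9, 99.7 and 105 CPM in wild type on norflurazon and 90.8 and 99.6 CPM in untreated wild type, so both lines stood far above them. Reads from the transgene and from the native gene were counted together. GUN1 (AT2G31400) had 417 and 470 CPM in MORF2OX against 337 and 364 CPM in MORF2OX(w). Its libraries did not overlap, but its log2 fold change of 0.34 (SE 0.17) missed the threshold (edgeR adjusted p = 0.444).

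**Figure D1:**
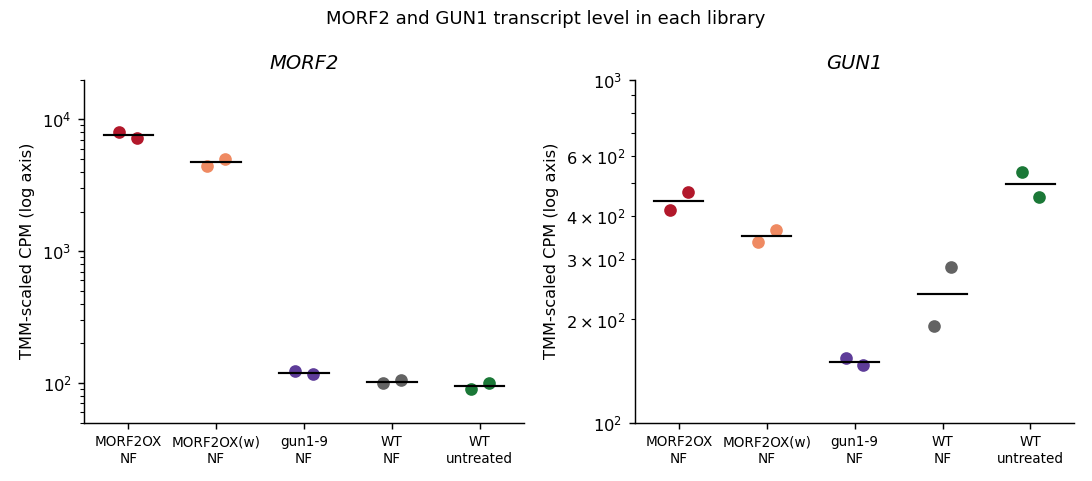
Level of MORF2 (left) and GUN1 (right) in each of the 10 libraries, in TMM-scaled CPM on log axes; each point is 1 library, each black line the mean of a group, and NF stands for norflurazon. MORF2OX lies above MORF2OX(w) for both genes, with MORF2 at 7608 against 4721 CPM on average and at about 100 CPM in the groups without the transgene.

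Between the lines 374 of 20628 genes tested passed an adjusted p of 0.05 (1.81%), and these are the genes described as called. They comprised 309 genes higher in MORF2OX (1.5% of those tested) and 65 lower (0.315%). The differences were mostly moderate: the median called gene differed 1.73-fold among the higher and 1.7-fold among the lower genes, and 84 and 20 of them reached 2-fold. Of the 309 higher genes 230 were in none of the lists. Photosynthesis was the theme of the lists with most calls: 55 of the 71 members of 3 lists for light harvesting, photosystem subunits and carbon fixation were called higher (77.5%) and none was called lower. The median log2 fold change of all genes tested was 0.0161, and 10937 of the 20628 had a fitted value above 0. An unadjusted p under 0.05 was reached by 2652 of the 20628 genes, 1806 higher and 846 lower in MORF2OX.

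The call of a gene leaned on each library of the lines. Without MORF2OX(w) replicate 2 no gene passed (1584 had an unadjusted p under 0.05), without MORF2OX(w) replicate 1 17 passed, and without MORF2OX replicate 1 or 2 183 and 103 passed; a line left with 1 library is assumed to vary like the other groups. The count also moved when a library of another group was left out: it was 148 and 147 without gun1-9 replicate 1 or 2, 229 without either untreated replicate, and 1548 and 1541 without wild type replicate 1 or 2 on norflurazon. DESeq2 called 623 genes on all 10 libraries, 364 of them among the 374. When libraries were scaled by their totals alone, 158 genes were higher and 145 lower: the share of higher genes among the called fell to 52.1%, against 82.6% with TMM, and the median of all genes moved to -0.129. The TMM factors were 0.9999 and 0.9965 for the MORF2OX libraries, against 1.12 and 1.088 for MORF2OX(w), and the part of this shift in composition in the split was not tested. The replicate libraries of wild type on norflurazon differed most (Spearman correlation over genes 0.984, against 0.994 to 0.997 within the other groups), and without both of them 1538 genes passed, including 373 of the 374. An exact permutation test of 2 against 2 libraries cannot go below p = 0.33, so single values such as summed levels are given without a test.

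**Figure D2:**
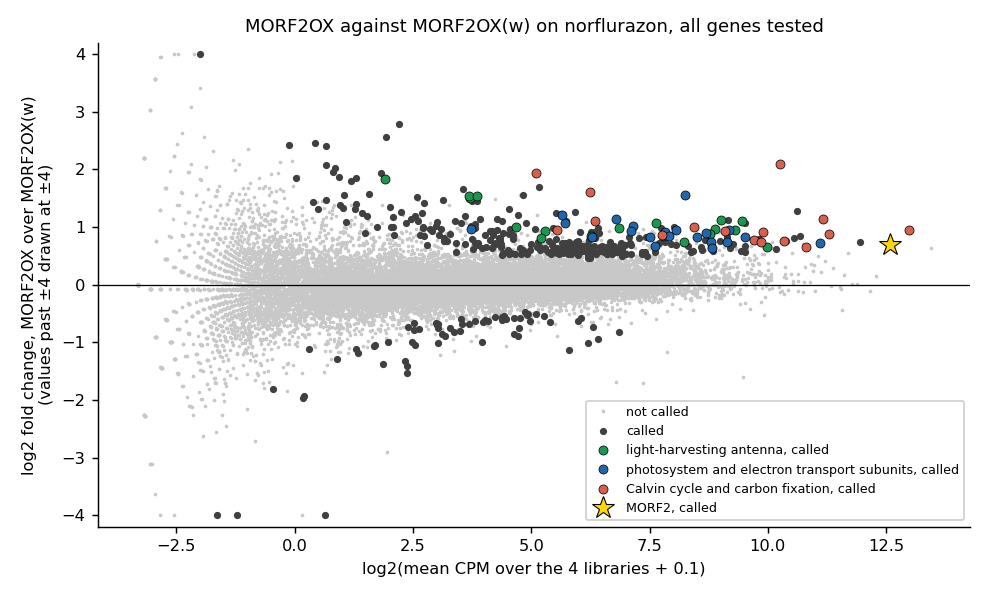
Each point is 1 of the 20628 genes tested: its mean level in the 4 overexpressor libraries (x axis, log2 of CPM + 0.1) and its log2 fold change, MORF2OX over MORF2OX(w) (y axis, drawn at ±4 beyond that). Called genes are dark or coloured; 309 of the 374 lie above 0, and the coloured members of the photosynthesis lists lie among them over a wide range of levels.

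The chlorophyll a/b-binding proteins of the light-harvesting antenna gather light for photosystem II (LHCB) and photosystem I (LHCA), and their genes are classic targets of retrograde signalling. Of 20 members, 17 were called higher in MORF2OX and none lower (85.0%, against 1.81% of all genes called). The median was 0.96 on the log2 scale. In total, antenna transcripts reached 6499 and 6215 CPM in MORF2OX against 3351 and 3464 CPM in MORF2OX(w), a 1.87-fold difference with no overlap. These sums were 4.58% of the untreated wild type mean in MORF2OX and 2.46% in MORF2OX(w), against 19.9% in gun1-9 and 1.08% in wild type on norflurazon. In such bulk samples, fewer cells of a type and less RNA per cell cannot be told apart.

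LHCB1.4 (AT2G34430, chr2:14524607-14525918, + strand, TAIR10), a major trimeric antenna protein of photosystem II, had 6.94 and 4.49 CPM in MORF2OX against 1.60 and 1.61 CPM in MORF2OX(w), a log2 fold change of 1.83 (SE 0.23, edgeR adjusted p = 0.0038). Its untreated wild type mean was 9088 CPM, so both lines remained near the bottom of its range. LHCB2.3 (AT3G27690) had 23.52 and 18.9 CPM in MORF2OX against 6.84 and 7.83 CPM in MORF2OX(w). LHCB2.2 (AT2G05070) had 16.9 and 21.1 CPM in MORF2OX against 6.49 and 6.63 CPM in MORF2OX(w). LHCB1.1 (AT1G29920) had 19.4 and 18.9 CPM in MORF2OX against 7.82 and 5.66 CPM in MORF2OX(w). Each of these 3 differed by a log2 fold change of about 1.5. None of their libraries overlapped, which the rule for naming genes of largest change required. LHCB1.1, LHCB1.2 and LHCB1.3 are nearly identical neighbours, as are LHCB2.1 and LHCB2.2, so counting could move reads between them and their single values are uncertain. LHCB1.4 is a neighbour by gene ID of LHCB1.5 (AT2G34420), which averaged 269 CPM in MORF2OX and 128 CPM in MORF2OX(w). Whether reads moved between these genes was not tested. Of the photosystem I antenna, LHCA1, LHCA2, LHCA3, LHCA4 and LHCA6 were called with log2 fold changes of 0.74 to 0.96. The called LHCB genes ran from 0.65 for LHCB4.1 to 1.83 for LHCB1.4, so the ranges overlap, and a difference between the antennae was not tested. LHCA3 (AT1G61520) had 601 and 654 CPM in MORF2OX against 315 and 330 CPM in MORF2OX(w).

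The other 3 members were not called. LHCB6, a monomeric antenna protein, had 194 and 202 CPM in MORF2OX against 105 and 107 CPM in MORF2OX(w), a log2 fold change of 0.90 that missed the threshold narrowly (edgeR adjusted p = 0.0586). LHCA5, a minor protein that helps to join the NDH complex to photosystem I, had 129 and 118 CPM in MORF2OX against 94.6 and 103 CPM in MORF2OX(w), with a log2 fold change of 0.32. LHCB4.3, a rarer form of the CP29 antenna protein, had 14.8 and 11.2 CPM in MORF2OX against 12.01 and 12.4 CPM in MORF2OX(w); its libraries overlapped and its log2 fold change was 0.09.

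Nuclear genes for photosystem and electron transport subunits followed the same direction. Of 30, 22 were called higher in MORF2OX (73.3%, against 1.81% of all genes called), none lower, and the median was 0.83. PSBS (AT1G44575, chr1:16870221-16873427, + strand), the protein that triggers energy dissipation in photosystem II, led them with 509 and 406 CPM in MORF2OX against 161 and 149 CPM in MORF2OX(w). Its log2 fold change was 1.56 (SE 0.15, edgeR adjusted p = 0.00103), and the libraries lay far apart. PSBQ2 (AT4G05180), an extrinsic subunit of the oxygen-evolving complex, had 77.3 and 63.1 CPM in MORF2OX against 31.1 and 29.7 CPM in MORF2OX(w). PSAH1 (AT3G16140), a photosystem I subunit at the docking site of mobile antenna, had 160 and 143 CPM in MORF2OX against 66.9 and 70.3 CPM in MORF2OX(w). Its paralogue PSAH2 (AT1G52230) had 72.8 and 68.7 CPM in MORF2OX against 33.7 and 33.7 CPM in MORF2OX(w). These 3 differed by log2 fold changes of 1.21, 1.14 and 1.07, with all MORF2OX libraries above all MORF2OX(w) libraries.

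Pairs of paralogues within the photosystem list were not always called together. Plastocyanin, the copper carrier of electrons to photosystem I, has the genes PETE1 and PETE2. PETE1 (AT1G76100) had 17.3 and 17.3 CPM in MORF2OX against 8.41 and 9.39 CPM in MORF2OX(w) and was called (log2 fold change 0.96, edgeR adjusted p = 0.00968). PETE2 (AT1G20340) had 1382 and 1324 CPM in MORF2OX against 768 and 850 CPM in MORF2OX(w) and was not (0.74, adjusted p = 0.095). Whether the members of a pair differ from each other was not tested. The lowest value of the list belonged to FD2, the main leaf ferredoxin, with a log2 fold change of 0.35 (adjusted p = 0.426).

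Subunits of the plastid NDH complex, which returns electrons to plastoquinone around photosystem I, formed a further group that was picked after their values were seen. By annotated symbol 16 nuclear NDH genes were tested; 12 were called higher in MORF2OX, none lower, and the median was 0.68. PnsB3 (AT3G16250, chr3:5506931-5508414, - strand) had 21.1 and 14.2 CPM in MORF2OX against 5.51 and 5.66 CPM in MORF2OX(w), a log2 fold change of 1.66 (SE 0.19, edgeR adjusted p = 0.00273). It overlaps AT3G16240 and AT3G03275 on the opposite strand, and whether counting used strand is not given in the sources used here, so reads of such neighbours may be mixed. The same holds for LHCB2.3, PSAH1, PSAH2, ATSPS4F, CAO, BCH2, PSY, VDE, GLDP1, GOX1, P5CS1, NAC013, EMB2729, AT1G64600 and AT5G62240 and, over all called genes, for 72 of 307 annotated genes higher and 18 of 65 lower in MORF2OX, against 27.3% of all genes tested. NdhU (AT5G21430), a J-domain subunit, had 71.7 and 57.4 CPM in MORF2OX against 27.5 and 27.3 CPM in MORF2OX(w). NdhS, the ferredoxin-binding subunit, had the lowest value of the group, a log2 fold change of 0.39 (adjusted p = 0.223).

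The list for carbon fixation held the 2 highest fold changes among called genes at 10 CPM or more whose libraries did not overlap. Of 21 genes listed for the Calvin cycle and its supply of carbon dioxide, 16 were called higher in MORF2OX and none lower. That was 76.2%, against 1.81% of all genes called, and the median was 0.87. CA1 (AT3G01500, chr3:194426-198664, - strand), the main plastid carbonic anhydrase, had 2315 and 1636 CPM in MORF2OX against 486 and 438 CPM in MORF2OX(w), a 4.27-fold difference (log2 fold change 2.096, SE 0.19, edgeR adjusted p = 0.000969). CA1 also had 5096 and 5643 CPM in gun1-9, 6.07 and 5.13 CPM in wild type on norflurazon and a mean of 12123 CPM in untreated wild type. CA2 (AT5G14740), named after its value was seen, had 2508 and 1936 CPM in MORF2OX against 937 and 901 CPM in MORF2OX(w) (log2 fold change 1.27).

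FBA5 (AT4G26530, chr4:13390754-13393265, + strand) is annotated only as an aldolase superfamily protein. That annotation does not place it in the plastid, so its part in the Calvin cycle is not established here. FBA5 had 62.9 and 46.0 CPM in MORF2OX against 14.7 and 13.7 CPM in MORF2OX(w), a log2 fold change of 1.94 (SE 0.16). Its adjusted p of 0.000707 was the lowest of any gene in the edgeR test. RBCS2B (AT5G38420), a small subunit of Rubisco, had 144 and 82.8 CPM in MORF2OX against 40.4 and 33.6 CPM in MORF2OX(w), with a wide gap between its own MORF2OX libraries. RBCS3B (AT5G38410), its neighbour and near copy, had 3478 and 2811 CPM in MORF2OX against 1411 and 1438 CPM in MORF2OX(w). Reads of RBCS1B, RBCS2B and RBCS3B can be exchanged in counting. Rubisco activase (RCA), which frees the enzyme of bound sugar phosphates, had 11061 and 10325 CPM in MORF2OX against 5337 and 5675 CPM in MORF2OX(w). The regulatory and regenerating enzymes PRK, SBPASE, GAPA1 and CP12-2 were called with log2 fold changes of 0.91, 0.93, 0.87 and 1.11.

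The promoters below show the 250 bases before the annotated gene start of CA1, the higher of those 2 genes, and of the named members of these 3 lists that hold a G-box core (CACGTG) or an I-box core (GATAAG), elements known from light-regulated plant promoters. The bases are RefSeq's TAIR10 reference, read 5′ to 3′ on the strand of the gene, and capitals mark either core in either orientation.
CA1: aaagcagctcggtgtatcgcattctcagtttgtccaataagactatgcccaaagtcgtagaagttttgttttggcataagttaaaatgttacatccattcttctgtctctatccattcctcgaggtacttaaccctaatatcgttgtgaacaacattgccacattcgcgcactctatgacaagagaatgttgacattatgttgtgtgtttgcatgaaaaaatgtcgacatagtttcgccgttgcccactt
FBA5: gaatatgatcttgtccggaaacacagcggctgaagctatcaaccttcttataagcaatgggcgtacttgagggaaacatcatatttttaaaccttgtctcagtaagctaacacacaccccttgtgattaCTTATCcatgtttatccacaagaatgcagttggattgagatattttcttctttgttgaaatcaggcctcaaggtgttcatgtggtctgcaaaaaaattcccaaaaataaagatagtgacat
RBCS2B: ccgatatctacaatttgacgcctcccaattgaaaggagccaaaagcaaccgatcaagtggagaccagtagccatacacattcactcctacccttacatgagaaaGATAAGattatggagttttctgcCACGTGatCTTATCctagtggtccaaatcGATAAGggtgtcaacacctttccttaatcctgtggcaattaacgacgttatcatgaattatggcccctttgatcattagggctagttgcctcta
LHCB2.3: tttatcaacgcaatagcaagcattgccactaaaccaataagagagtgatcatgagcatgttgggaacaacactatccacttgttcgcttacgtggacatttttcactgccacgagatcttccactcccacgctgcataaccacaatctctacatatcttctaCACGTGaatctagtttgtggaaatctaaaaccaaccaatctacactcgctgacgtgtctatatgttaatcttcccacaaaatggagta
PSBQ2: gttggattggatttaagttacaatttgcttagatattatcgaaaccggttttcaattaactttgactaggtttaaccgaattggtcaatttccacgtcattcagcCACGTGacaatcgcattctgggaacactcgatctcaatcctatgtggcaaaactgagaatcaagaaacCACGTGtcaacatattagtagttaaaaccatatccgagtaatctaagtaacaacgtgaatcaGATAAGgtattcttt
PSAH2: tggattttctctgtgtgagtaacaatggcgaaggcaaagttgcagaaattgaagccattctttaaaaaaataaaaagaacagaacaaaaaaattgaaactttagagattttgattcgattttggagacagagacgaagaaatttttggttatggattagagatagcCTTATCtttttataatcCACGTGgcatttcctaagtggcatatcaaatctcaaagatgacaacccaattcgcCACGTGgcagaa
They come from chr3:198665-198914 (- strand, CA1), chr4:13390504-13390753 (+ strand, FBA5), chr5:15382072-15382321 (- strand, RBCS2B), chr3:10255656-10255905 (+ strand, LHCB2.3), chr4:2673244-2673493 (- strand, PSBQ2) and chr1:19454548-19454797 (+ strand, PSAH2). CA1 holds neither core in this window, FBA5 an I-box only, LHCB2.3 a G-box only, and RBCS2B, PSBQ2 and PSAH2 hold both. LHCB1.1, LHCB1.4, LHCB2.2, PSBS, PSAH1 and RBCS3B also hold neither core and are not shown. Over the whole antenna, photosystem and Calvin cycle lists, 20.0%, 16.7% and 14.3% of promoters held the G-box core. The I-box core was in 20.0%, 26.7% and 23.8% of them. Among all promoters of called genes, the G-box core was present in 39 of 307 genes higher in MORF2OX (12.7%), in 9.23% of the 65 lower and in 7.33% of 20496 tested genes with an annotated start. The I-box core was present in 17.3% of the higher, 13.8% of the lower and 12.5% of all tested genes. The evening element core (AATATCT) was in 12.4% of the higher, 7.69% of the lower and 10.2% of all genes, the W-box core (TTGAC) in 45.3%, 52.3% and 44.9%, and the heat shock element (GAANNTTC) in 6.51%, 10.8% and 9.27%. All were searched on both strands, and these shares are descriptions without a test.

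Photorespiration recycles the by-product of Rubisco's reaction with oxygen through plastid, peroxisome and mitochondrion. Of its 13 genes, 6 were called higher in MORF2OX and none lower, and the median was 0.63. The called share was 46.2%, against 1.81% of all genes tested. GLDP1 (AT4G33010), the decarboxylating subunit of mitochondrial glycine decarboxylase, had 2257 and 1971 CPM in MORF2OX against 1132 and 1216 CPM in MORF2OX(w). GOX1 (AT3G14420), a peroxisomal glycolate oxidase, had 2021 and 1777 CPM in MORF2OX against 1067 and 1106 CPM in MORF2OX(w). SHM1 (AT4G37930), the mitochondrial serine hydroxymethyltransferase, had 1748 and 1618 CPM in MORF2OX against 969 and 1030 CPM in MORF2OX(w). GGT1 (AT1G23310), a peroxisomal aminotransferase, had 5028 and 4845 CPM in MORF2OX against 2827 and 3101 CPM in MORF2OX(w). None of these 4 overlapped between lines, and their log2 fold changes ran from 0.74 to 0.85. Nitrogen assimilation, which takes up the ammonia released here, had 2 of 12 genes called (16.7%), both higher in MORF2OX. The plastid glutamine synthetase GLN2 (AT5G35630) had 839 and 719 CPM in MORF2OX against 359 and 356 CPM in MORF2OX(w). The nitrate reductase NIA2 (AT1G37130) had 1006 and 978 CPM in MORF2OX against 470 and 474 CPM in MORF2OX(w).

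Pigment synthesis had called genes in both of its lists. Of 13 carotenoid genes, 5 were called higher in MORF2OX and none lower (median 0.40). The called share was 38.5%, against 1.81% of all genes tested. Those 5 were PSY, the entry enzyme phytoene synthase, and the xanthophyll enzymes BCH1, BCH2, ZEP and VDE. BCH2 (AT5G52570), a carotene hydroxylase, had 6.70 and 6.89 CPM in MORF2OX against 3.25 and 3.18 CPM in MORF2OX(w) (log2 fold change 1.08). PSY (AT5G17230) had 181 and 158 CPM in MORF2OX against 105 and 99.9 CPM in MORF2OX(w). ZEP and VDE, which turn the xanthophyll cycle in opposite directions, differed by log2 fold changes of 0.66 and 0.58. PDS3 (AT4G14210), the phytoene desaturase that norflurazon inhibits, was not called, with 165 and 154 CPM in MORF2OX against 129 and 143 CPM in MORF2OX(w) (log2 fold change 0.23, edgeR adjusted p = 0.485).

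Of 26 tetrapyrrole genes tested, 2 were called higher in MORF2OX and none lower, with a median of 0.32. The called share was 7.69%, against 1.81% of all genes tested. GUN5 (AT5G13630), the large subunit of magnesium chelatase at the branch to chlorophyll, had 1221 and 1056 CPM in MORF2OX against 629 and 685 CPM in MORF2OX(w) (log2 fold change 0.79, SE 0.15, edgeR adjusted p = 0.0201). CAO (AT1G44446), which makes chlorophyll b, had 87.1 and 87.1 CPM in MORF2OX against 58.1 and 61.6 CPM in MORF2OX(w). HEMA1, the first committed enzyme, and CRD1, a subunit of the cyclase, had log2 fold changes of 0.65 and 0.68 and missed the threshold (adjusted p = 0.0552 and 0.0757). PORB, a protochlorophyllide reductase, had overlapping libraries and a log2 fold change of -0.17. Whether this list differs from the antenna was not tested.

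**Figure D3:**
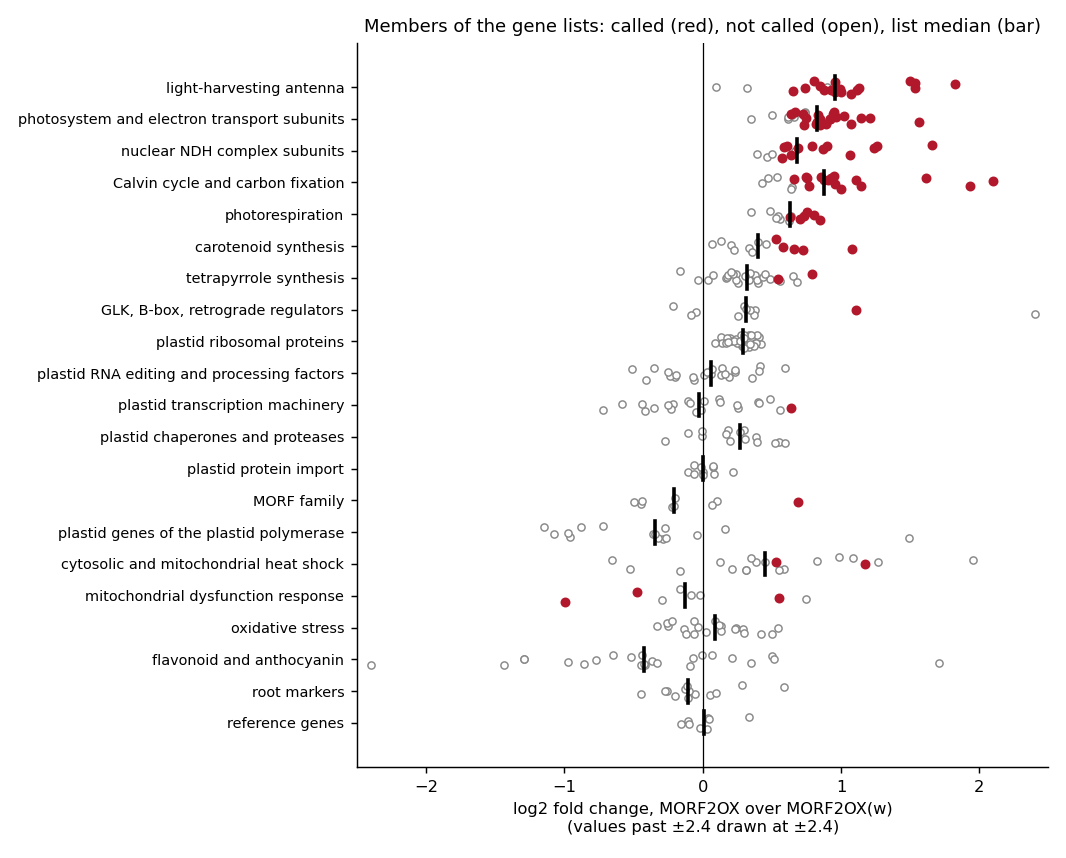
Each point is a member of 1 of 21 gene lists, placed by its log2 fold change, MORF2OX over MORF2OX(w) (x axis, drawn at ±2.4 beyond that; vertical scatter within a row is for legibility); red points were called, open points were not, and a black bar marks the median of a list. The antenna, photosystem, NDH and Calvin cycle rows lie to the right of 0 with medians of 0.68 to 0.96, while editing factors, import and reference genes centre near 0; the points at the limits are BBX16 and LDOX, which had at most a few reads.

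The genes for plastid gene expression, import and protein care had 2 called genes, MORF2 among them. At the 1.81% called over all genes tested, lists of this size would hold few or no calls. Their low counts are therefore not read as a difference from other genes. None of 32 nuclear genes for plastid ribosomal proteins was called by edgeR or by DESeq2. All 32 fitted values were nevertheless above 0, against 10937 of all 20628 genes tested. Of the 32, 11 had an unadjusted p under 0.05, against 2652 of all genes, and the median was 0.29. RPL11, for example, had 175 and 153 CPM in MORF2OX against 122 and 126 CPM in MORF2OX(w) (adjusted p = 0.186). None of 23 plastid editing and RNA processing factors, the partners among which MORF2 works, was called by either tool (5 had an unadjusted p under 0.05), and the median was 0.06 (-0.09 with library totals alone). The pair with the largest values was CREF7 (log2 fold change 0.60, adjusted p = 0.0901) and OTP81 (-0.51, adjusted p = 0.158). Among the 9 MORF genes MORF2 was the only one called. MORF8, which serves plastids and mitochondria, had 94.8 and 95.8 CPM in MORF2OX against 126 and 133 CPM in MORF2OX(w); its log2 fold change of -0.44 missed the threshold in edgeR (adjusted p = 0.0524), and DESeq2 called 1 MORF gene lower. MORF9, the other plastid MORF protein, had 81.4 and 81.4 CPM in MORF2OX against 73.0 and 78.9 CPM in MORF2OX(w).

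Of 22 genes for plastid transcription, 1 was called (4.55%, against 1.81% of all genes tested). It was SIG1 (AT1G64860), a sigma factor that directs the plastid-encoded polymerase to promoters. SIG1 had 132 and 125 CPM in MORF2OX against 85.0 and 80.3 CPM in MORF2OX(w) (log2 fold change 0.64, SE 0.13, edgeR adjusted p = 0.0277). The fitted values of the sigma factors SIG1 to SIG6 all lay above 0, between 0.25 and 0.64, and those of RPOTMP (-0.72), PRIN2 (-0.58), FLN1 (-0.44) and FLN2 (-0.42) lay below, with adjusted p of 0.0525 to 0.0732. DESeq2 called 3 members higher and 4 lower. The plastid genes themselves, read here only through polyadenylated fragments, summed to 636 and 679 CPM in MORF2OX against 906 and 690 CPM in MORF2OX(w), and none of the 85 tested was called by edgeR (18 had an unadjusted p under 0.05, and DESeq2 called 1). NDHF and YCF1 had fitted log2 fold changes of 1.49 and 1.55 and PETB of -1.15, none of them called (adjusted p = 0.143, 0.102 and 0.137). None of 10 protein import genes and none of 15 plastid chaperones and proteases was called by edgeR (0 and 7 had an unadjusted p under 0.05, and DESeq2 called 0 and 3). FTSH5 and FTSH8, subunits of the thylakoid protease that clears damaged photosystem II, came nearest in that list, with log2 fold changes of 0.59 and 0.55 (adjusted p = 0.0915 and 0.0791).

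The list of GLK, B-box and retrograde signalling regulators, GUN1 among them, had 1 of 11 tested genes called. That share was 9.09%, against 1.81% of all genes tested. GLK1 (AT2G20570), a direct activator of antenna genes, had 8.81 and 8.65 CPM in MORF2OX against 7.31 and 6.17 CPM in MORF2OX(w) (log2 fold change 0.37, adjusted p = 0.448), and averaged 102 CPM in gun1-9. GLK2 had a log2 fold change of 0.31 (adjusted p = 0.264), and HY5, a light-signalling factor, of -0.05. The B-box factor BBX15 (AT1G25440) was the 1 of 11 regulators called: it had 33.0 and 23.8 CPM in MORF2OX against 14.2 and 12.2 CPM in MORF2OX(w) (log2 fold change 1.11, SE 0.16, adjusted p = 0.00788). BBX32 (AT3G21150), named after its value was seen, had 7.58 and 8.69 CPM in MORF2OX against 3.64 and 3.91 CPM in MORF2OX(w).

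Starch and sucrose synthesis were represented among the 12 highest genes. ATSPS4F (AT4G10120, chr4:6313914-6320094, + strand), a sucrose-phosphate synthase, had 62.5 and 46.6 CPM in MORF2OX against 16.0 and 17.7 CPM in MORF2OX(w) (log2 fold change 1.69, SE 0.16, edgeR adjusted p = 0.000969). GBSS1 (AT1G32900), the granule-bound starch synthase, had 14.99 and 10.5 CPM in MORF2OX against 4.77 and 4.37 CPM in MORF2OX(w). The 12 also held AT1G09500, annotated as an NAD(P)-binding Rossmann-fold protein, with 19.1 and 23.1 CPM in MORF2OX against 7.08 and 8.38 CPM in MORF2OX(w), and AT1G72645, of no annotated function, with 45.4 and 39.2 CPM in MORF2OX against 18.4 and 10.04 CPM in MORF2OX(w). At lower levels, outside the naming rule, AT5G62240 (annotated as a microtubule-associated protein) had 7.497 and 5.29 CPM in MORF2OX against 1.17 and 0.97 CPM in MORF2OX(w). AT2G01422, an annotated non-coding RNA, had 7.77 and 7.89 CPM in MORF2OX against 0.78 and 1.52 CPM in MORF2OX(w).

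Of the 65 genes lower in MORF2OX, 63 were in none of the lists. AT2G18193 (chr2:7917413-7919345, - strand), a P-loop nucleoside triphosphate hydrolase by its annotation, had 32.7 and 36.7 CPM in MORF2OX against 79.0 and 72.6 CPM in MORF2OX(w) (log2 fold change -1.13, SE 0.12, edgeR adjusted p = 0.00194). ACC2 (AT1G36180, chr1:13545965-13558600, + strand), the homomeric acetyl-CoA carboxylase of plastids, had 48.3 and 49.1 CPM in MORF2OX against 100.3 and 96.7 CPM in MORF2OX(w) (log2 fold change -1.02, SE 0.13, adjusted p = 0.0038). AT1G17960, annotated as a threonyl-tRNA synthetase, had 85.0 and 82.6 CPM in MORF2OX against 160.1 and 137 CPM in MORF2OX(w). AT2G04050, a MATE efflux transporter, had 61.1 and 56.3 CPM in MORF2OX against 114 and 110.3 CPM in MORF2OX(w). In each of these 4 both MORF2OX libraries lay below both MORF2OX(w) libraries, which the rule for naming them required.

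Several of the lower genes are known for stress outside the plastid. UPOX (AT2G21640), a mitochondrial protein used as a marker of oxidative stress, had 9.68 and 11.1 CPM in MORF2OX against 22.4 and 19.0 CPM in MORF2OX(w) (log2 fold change -0.99, SE 0.20, edgeR adjusted p = 0.0279). NAC013 (AT1G32870), a factor of mitochondrion-to-nucleus signalling, had 24.2 and 24.6 CPM in MORF2OX against 33.6 and 34.2 CPM in MORF2OX(w). The list for mitochondrial dysfunction nevertheless pointed both ways. Of 8 genes tested these 2 were called lower and NDA1, an alternative NADH dehydrogenase, higher (37.5% called, against 1.81% of all genes tested). NDA1 had 92.6 and 95.1 CPM in MORF2OX against 63.6 and 64.6 CPM in MORF2OX(w). NAC103 (AT5G64060), a factor of the unfolded protein response of the endoplasmic reticulum, had 5.83 and 6.69 CPM in MORF2OX against 11.97 and 11.3 CPM in MORF2OX(w). LTP2 (AT2G38530), a lipid transfer protein, had 19.3 and 15.9 CPM in MORF2OX against 34.8 and 28.5 CPM in MORF2OX(w). The other genes of the 12 lowest, AT3G49320, EMB2729, AT1G64600, AT5G06550 and AT3G58270, had log2 fold changes of -1.005 to -0.80.

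A few genes of low level were picked after their values were seen, 2 of them because they had no read in either library of a line. AT5G32678 (chr5:12326881-12329676, + strand), of no annotated function, had no read in either MORF2OX library and 2.46 and 3.36 CPM in MORF2OX(w). Against a floor of 3 counts over the MORF2OX libraries it was at least 48.1-fold lower in MORF2OX; gun1-9 averaged 0.02 CPM and both wild type groups had none. AT1G15300, annotated under the name CYTOSLEEPER, had 2.46 and 2.76 CPM in MORF2OX against 7.47 and 7.69 CPM in MORF2OX(w). It averaged 2.26 CPM in untreated wild type, 3.16 CPM in wild type on norflurazon and 3.19 CPM in gun1-9. AT5G34800 had 3.21 and 2.36 CPM in MORF2OX against 8.02 and 6.77 CPM in MORF2OX(w), and averaged 2.67, 3.65 and 1.88 CPM in those groups. For both genes MORF2OX lay within the range of the libraries of those groups, and MORF2OX(w) lay above it. In the opposite direction, AT3G15310 had 0.36 and 0.24 CPM in MORF2OX and no read in MORF2OX(w), at least 4.71-fold higher in MORF2OX. Called genes were spread over the genome, at 2.22%, 1.38%, 1.84%, 1.7% and 1.7% of the genes tested on chromosomes 1 to 5.

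Among stress and hormone lists other than that for mitochondrial dysfunction, 4 had a called gene, which was 10.5% of the heat shock, 8.33% of the defence, 6.67% of the abscisic acid and 5.88% of the expansin and XTH genes tested, against 1.81% of all genes. Of 19 heat shock genes 2 were higher in MORF2OX: HSFA2 (AT2G26150), a heat-inducible heat shock factor, had 6.27 and 5.13 CPM in MORF2OX against 3.05 and 1.93 CPM in MORF2OX(w), and HSFB2A (AT5G62020) had 30.9 and 33.8 CPM in MORF2OX against 21.5 and 23.3 CPM in MORF2OX(w). WRKY70 (AT3G56400), 1 of 12 defence genes, had 60.7 and 69.7 CPM in MORF2OX against 44.5 and 45.3 CPM in MORF2OX(w). P5CS1 (AT2G39800), which makes proline, 1 of 15 genes for abscisic acid, cold and drought, had 48.2 and 55.5 CPM in MORF2OX against 29.2 and 32.4 CPM in MORF2OX(w). XTH22 (AT5G57560), a touch-inducible cell wall enzyme, 1 of 17 expansin and XTH genes, had 598 and 848 CPM in MORF2OX against 382 and 432 CPM in MORF2OX(w), with a wide gap between its MORF2OX libraries. No member was called by edgeR for oxidative stress (21 tested), flavonoids (24), aliphatic (17) and indolic (12) glucosinolates, jasmonate (16), auxin (14), the clock (16), sugar starvation (13), iron (14) or the cell cycle (19). Of these 10 lists DESeq2 called 1 flavonoid gene lower and 1 clock gene higher. Flavonoid genes had a median of -0.42, and 10 of the 24 had an unadjusted p under 0.05 in the lower direction. Over all 20628 genes tested 846 had such a p in that direction. In each of the other 9 lists at most 6 members had an unadjusted p under 0.05 in either direction.

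No cell type marker was called by edgeR (5 had an unadjusted p under 0.05, and DESeq2 called 1 root marker lower). With 1.81% of all genes tested called, such small lists would hold few or no calls, so this count says little about cell composition. The 13 root markers summed to 3004 and 2350 CPM in MORF2OX against 3677 and 3540 CPM in MORF2OX(w), mostly through PYK10, a beta-glucosidase of roots, with 2894 and 2240 CPM in MORF2OX against 3568 and 3425 CPM in MORF2OX(w) (log2 fold change -0.45, adjusted p = 0.168). The 10 guard cell and stomatal markers summed to 82.7 and 76.1 CPM in MORF2OX and 84.3 and 81.3 CPM in MORF2OX(w). The 8 vascular markers summed to 164.5 and 148 CPM in MORF2OX and 176 and 154 CPM in MORF2OX(w). Shoot meristem and epidermis markers summed to 748 and 641 CPM in MORF2OX and 787 and 777 CPM in MORF2OX(w). Seed storage genes were near 0, at 1.15 and 1.80 CPM in MORF2OX and 5.44 and 1.29 CPM in MORF2OX(w), all 10 together. All 4 libraries thus held transcripts of root, stomatal, vascular and epidermal cells. Of the meristem genes, STM had 68 and 86 reads in MORF2OX and 91 and 89 in MORF2OX(w), while WUS had at most 1 read. The part of the lower root sum in the other differences was not tested. The 8 reference genes had a median of 0.01 (-0.14 with library totals alone) and none was called (1 had an unadjusted p under 0.05, and DESeq2 called none).

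The called genes were then set beside 2 comparisons that contain no overexpressor library. Of the 309 genes higher in MORF2OX, 276 (89.3%) were lower in wild type on norflurazon than in untreated wild type, where 34.5% of all genes tested were lower; they were 3.88% of the 7114 genes lowered by norflurazon. Of the same 309, 292 (94.5%) were higher in gun1-9 than in wild type on norflurazon, where 22.9% of all genes were higher and 43.8% were called in either direction; they were 6.17% of those 4731 genes. Of the 65 genes lower in MORF2OX, 47 (72.3%) were raised by norflurazon in wild type, against 30.5% of all genes (0.746% of 6298), and 41 (63.1%) were lower in gun1-9, against 20.9% (0.951% of 4310). These 2 comparisons share the wild type libraries on norflurazon with each other, so they are not independent of one another. Across all 20628 genes the difference between the overexpressor lines had a Pearson correlation of 0.439 and a Spearman correlation of 0.422 with the gun1-9 effect, and of -0.159 and -0.131 with the norflurazon effect; genes are not independent replicates, and all comparisons share 1 scaling.

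**Figure D4:**
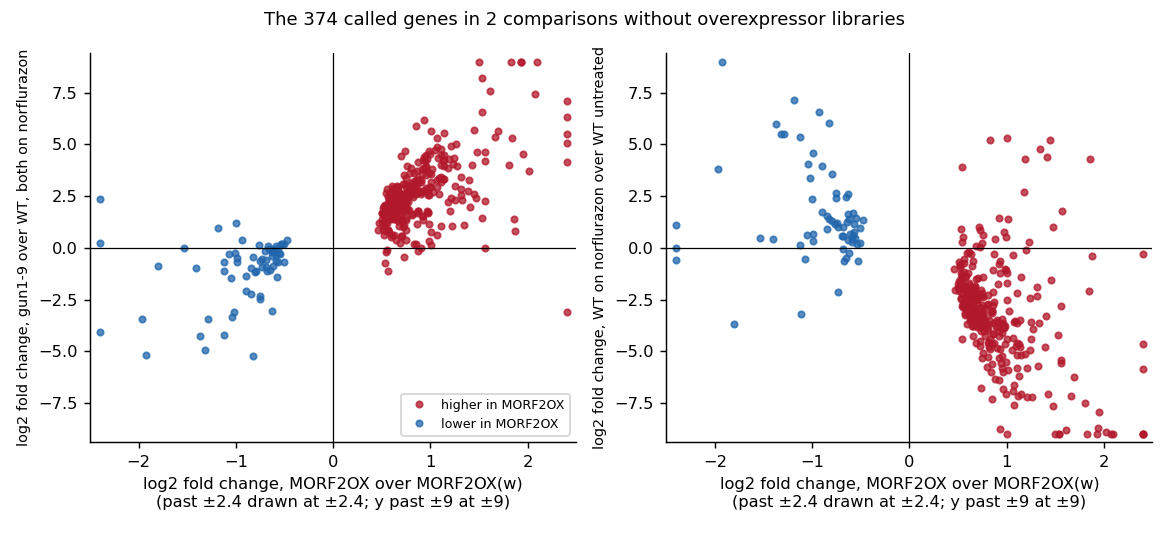
Each point is 1 of the 374 called genes, with its log2 fold change between the lines (x axis, MORF2OX over MORF2OX(w), drawn at ±2.4 beyond that) against the gun1-9 effect on norflurazon (left) and the norflurazon effect in wild type (right; both y axes drawn at ±9 beyond that). Of the 309 genes higher in MORF2OX (red), 292 were called higher in gun1-9 and 276 called lower by norflurazon; of the 65 lower genes (blue), 41 were called lower in gun1-9 and 47 higher on norflurazon.

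Not every higher gene was one that norflurazon represses. A set of 19 (6.15% of the 309) was higher in MORF2OX and also raised by norflurazon in wild type, and another 14 did not pass that test. The 19 included HSFA2, HSFB2A, WRKY70 and XTH22, described above, and 2 genes named after their values were seen. PHI-1 (AT1G35140), a phosphate-induced gene, had 288 and 404 CPM in MORF2OX against 156 and 189 CPM in MORF2OX(w). ZAT7 (AT3G46090), a zinc finger protein of stress responses, had 12.3 and 26.8 CPM in MORF2OX against 7.16 and 7.14 CPM in MORF2OX(w). For XTH22, PHI-1 and ZAT7 MORF2OX replicate 2 lay well above replicate 1.

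The order of the 5 groups was the same for each of 6 lists picked for display and summed by library. Untreated wild type was highest, then gun1-9, MORF2OX, MORF2OX(w) and wild type on norflurazon. The carotenoid and NDH lists kept this order, but others did not. In gun1-9 the sums were 160% of untreated wild type for import, 121% for chaperones and proteases, 108% for editing factors and 104% for plastid transcription. For the GLK and B-box list MORF2OX (54.0%) lay above gun1-9 (46.0%). In the 6 displayed lists the gap between the overexpressor lines was 1.87-fold for the antenna, 1.78-fold for the Calvin cycle and 1.64-fold for the photosystem list. It was 1.58-fold for photorespiration, 1.39-fold for tetrapyrrole synthesis and 1.2-fold for plastid ribosomal proteins. MORF2 itself differed 1.61-fold between the lines. With only 2 lines, a relation between the MORF2 level and these gaps was not tested. With library totals alone the medians of the antenna, photosystem and Calvin cycle lists were 0.81, 0.68 and 0.73, and 14, 17 and 15 of their members were called, all higher. In the same setting SIG1, NDA1, WRKY70, XTH22 and both heat shock factors were not called, and 7 NDH, 3 photorespiration, 2 carotenoid and 1 tetrapyrrole genes were. Without MORF2OX(w) replicate 1 the medians of the antenna, photosystem and Calvin cycle lists were 0.95, 0.79 and 0.83 and without MORF2OX(w) replicate 2 1.00, 0.85 and 0.93, while the called members numbered 1, 1 and 2 without the first and none without the second.

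**Figure D5:**
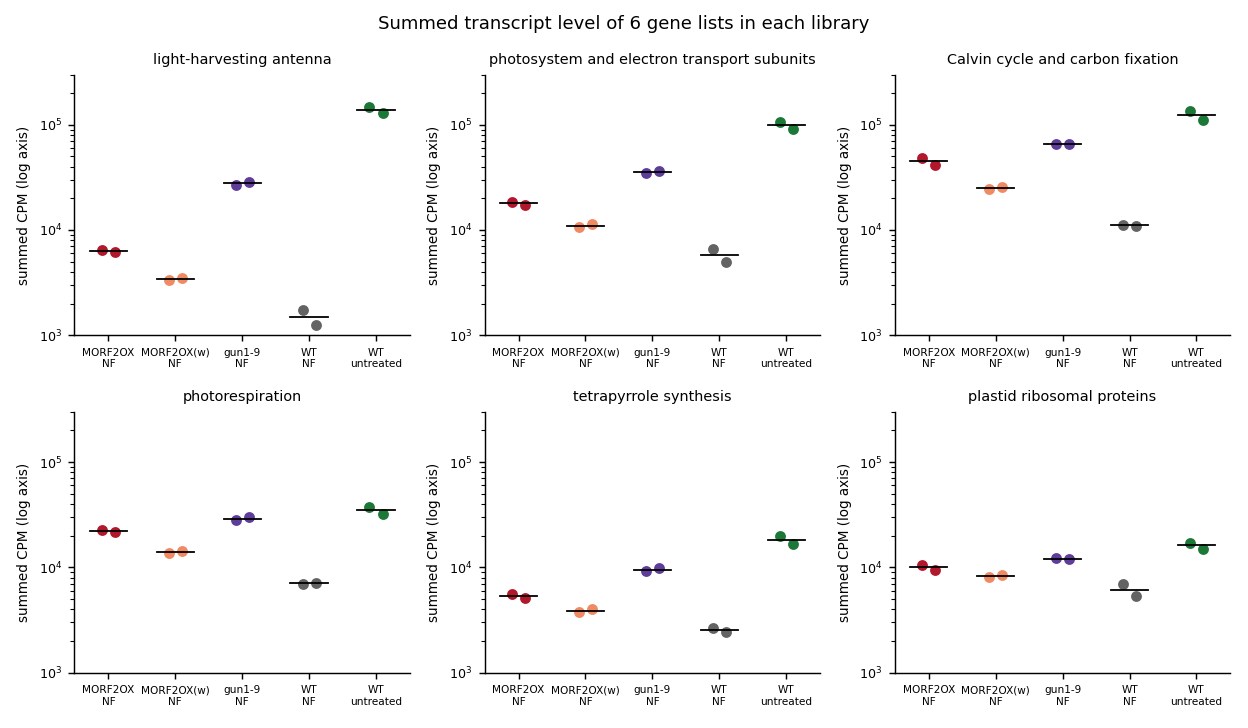
Summed level of 6 gene lists in each of the 10 libraries, in CPM on a log axis that is the same for all panels; each point is 1 library, each black line the mean of a group, and NF stands for norflurazon. In every panel MORF2OX lies above MORF2OX(w) with no overlap, by 1.87-fold for the antenna and 1.2-fold for plastid ribosomal proteins, and both lie below gun1-9 and above wild type on norflurazon.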

How the data were processed

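Polyadenylated RNA of pooled whole seedlings was sequenced from stranded libraries, single-end, per the labels' protocols. The deposited files give raw counts per gene for each library, as the authors made them with TopHat2 2.1.1, Bowtie2 2.3.1 and HTSeq 0.6.1 on TAIR10, per the submitters' processing notes; the strand setting is not given in the sources used here.

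Of 33602 genes listed, 20628 passed edgeR's filterByExpr. The 10 libraries were fitted as 5 group means with edgeR 4.0.16 (R 4.3.3; TMM scaling, quasi-likelihood test), with Benjamini-Hochberg adjustment over all genes tested and a threshold of 0.05. The biological coefficient of variation was 11.1%. DESeq2 1.42.0, other scalings and filters, and fits without single libraries were alternatives. Standard errors are the log2 fold change divided by the root of F. The labels state no pairing of same-numbered libraries, so no block was used in the main fit.

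The text names MORF2, GUN1, the 12 genes of largest change in each direction among called genes whose libraries did not overlap and whose higher line averaged 10 CPM or more, and up to 4 called members of each list (2 where none was called); lists with a share of calls above that of all genes have further members described. Other genes are marked as named after their values were seen. Where the higher line averaged 10 CPM or more, all 260 higher and 39 lower called genes had libraries without overlap. Lack of overlap therefore adds nothing to a call at that level. The members and lists were chosen with earlier results of these data known. Promoters are the 250 bases before the annotated start in RefSeq's TAIR10.1 copy; MORF2 has no coordinates here. Counts limit precision at low levels, and intervals for counting error are not given.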

Additional observations from a re-analysis of the deposited data

How the results depend on the processing

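Against 374 called genes (309 higher and 65 lower in MORF2OX), DESeq2 called 623 (512 and 111), edgeR without a filter on low counts 870 (641 and 229), edgeR on the 4 overexpressor libraries alone 1286 (896 and 390) and edgeR without the wild type libraries on norflurazon 1538 (1151 and 387). Scaling by library totals alone gave 158 higher and 145 lower genes. Leaving out each library in turn gave 0 to 1548 called genes, 0 to 1154 higher and 0 to 394 lower. The cause of these shifts was not tested. Of the 58 named genes that were called, all 58 lost the call without MORF2OX(w) replicate 2 and 48 without MORF2OX(w) replicate 1, while none lost it in DESeq2 or without a filter. A replicate block gave 388 genes (322 higher and 66 lower), 344 of them shared, and 3 of the 58 lost the call. The deviations of same-numbered libraries had a correlation of 0.0892 between the lines, which does not settle whether the libraries were paired. With single libraries left out, the fitted value of CYP81F2 (log2) ranged between -0.26 without MORF2OX replicate 2 and 0.90 without MORF2OX replicate 1, and that of VND7 between -1.66 without MORF2OX(w) replicate 1 and 3.04 without MORF2OX(w) replicate 2, and neither gene was called in any of these fits. Genes with few reads, such as VND7, are limited by counting error.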

Other observations

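Families chosen by annotated product after their values were seen gave further counts, to be read against 1.81% of all genes called. Of 66 PsbP-like, PsbQ-like and other photosystem and thylakoid proteins, 30 were higher in MORF2OX and none lower (45.5% called), with a median log2 fold change of 0.67; 41 were called in DESeq2, 50 without the wild type libraries on norflurazon, and 6 and 11 without MORF2OX replicate 1 or 2. Of 241 pentatricopeptide repeat genes, 1 was higher and 3 were lower (1.66%), with a median of -0.11; the counts were 9 and 6 without the wild type libraries on norflurazon. Of 167 NB-ARC, TIR or other disease resistance genes, 5 were higher and none lower (2.99%), with a median of 0.22. That count was 16 in DESeq2, 40 without the wild type libraries on norflurazon, and 13 and 2 without MORF2OX replicate 1 or 2. Their summed level was 4326 and 5230 CPM in MORF2OX against 3417 and 3677 CPM in MORF2OX(w). Of 170 cytochrome P450 genes, 7 were higher and none lower (4.12%); the count was 16 without the wild type libraries on norflurazon and 3 without MORF2OX replicate 2. With MORF2OX(w) replicate 1 or 2 left out, at most 1 gene of each of these 4 families was called. None of 25 mitochondrial genome transcripts tested was called by edgeR or DESeq2 (5 had an unadjusted p under 0.05).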
